A study of Homo sapiens with 4 samples.

Results

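The 36 genes described here are the interleukins, the chemokines and their receptors on a cancer microarray of MDA-MB-231 cells, a triple-negative human breast adenocarcinoma line. They were taken by name, as every probe whose gene symbol began with IL and a digit, CCL, CXCL, CCR or CXCR, and they make up 36 of the 1856 gene probes on the array. Each gene had 1 probe spotted 2 times, which gave 72 of the 3786 gene spots. The set held 25 ligands, 9 receptors and 2 antagonists or decoys. By family, 15 genes belonged to the chemokine system and 21 to the interleukins. The receptor CXCR5 is printed on the array under its old name BLR1 and so fell outside the naming rule, with a log2 ratio of 0.27 and no call. IL8 and IL8RA are the array's names for CXCL8 and CXCR1.

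MDA-MB-231 cells, routinely cultured in RPMI medium with serum, were exposed for 24 h to 100 ng/mL of recombinant human LRG1 (rhLRG1). They were compared with untreated cells, which received standard RPMI medium. LRG1 is a secreted leucine-rich glycoprotein of serum. Each group had 2 samples, numbered 2 and 3, grown and harvested independently. Each array carried the rhLRG1 sample in the ALEXA 647 channel and the untreated sample of the same number in the ALEXA 555 channel. These are called array 2 and array 3 after the replicate number. The dyes were not swapped, so dye and treatment cannot be told apart in any ratio below. With 2 arrays, the number of arrays limits the precision.

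Chemokines are small secreted proteins that steer migrating cells through G protein-coupled receptors, and interleukins are secreted messengers that act mainly through JAK and STAT proteins or, for the IL-1 family, through adaptors leading to NF-kB. In breast cancer both families are known for recruiting leukocytes and for acting on the tumor cells themselves, with CXCL12 and CXCR4 the best-known pair in metastasis. CXCL10 is a chemokine induced by interferon that attracts T cells through CXCR3.

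Among these genes, only ligands and receptors of the chemokine family passed the Z ratio rule in the reported calculation. All 4 that passed were lower in rhLRG1-treated cells. The Z ratio is the difference between the mean Z scores of the rhLRG1 and untreated channels, with Z scores taken over all probes of a channel, divided by the standard deviation of that difference over all probes. It was taken on background-corrected channels without loess. A gene was called beyond 1.5 in either direction, without a p-value. Called lower were CXCL10, CXCL12 and CCL8, which are ligands, and CXCR1, a receptor for CXCL8 and CXCL6. None was called higher. The 4 calls are 11.1% of the 36 genes, against 13.4% of all probes called in either direction. By direction, 6.63% of all probes were called lower and 6.73% higher. In limma's moderated test, with p-values adjusted by Benjamini-Hochberg over all 1856 probes, 0 of the 36 genes and 0% of all probes passed 0.05.

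The promoters of the 4 called genes are printed because the lower ligands include a well-known target of interferon and NF-kB. RefSeq promoter entries on GRCh38.p14 matched 31 of the 36 genes by symbol, among them all 4. Each run is the 250 bases before the start site on the gene's strand, in lower case, with every motif match on either strand in capitals.
CXCL10: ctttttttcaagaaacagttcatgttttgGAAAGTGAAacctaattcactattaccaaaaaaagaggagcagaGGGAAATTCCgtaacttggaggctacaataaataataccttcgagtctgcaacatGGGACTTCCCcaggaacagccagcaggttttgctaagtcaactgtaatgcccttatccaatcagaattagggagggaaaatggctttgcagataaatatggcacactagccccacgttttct
CXCL12: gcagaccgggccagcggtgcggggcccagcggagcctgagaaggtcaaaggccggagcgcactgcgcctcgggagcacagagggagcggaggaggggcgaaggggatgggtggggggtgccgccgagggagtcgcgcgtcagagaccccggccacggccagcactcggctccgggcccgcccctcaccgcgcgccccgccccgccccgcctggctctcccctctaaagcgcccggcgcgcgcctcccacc
CCL8: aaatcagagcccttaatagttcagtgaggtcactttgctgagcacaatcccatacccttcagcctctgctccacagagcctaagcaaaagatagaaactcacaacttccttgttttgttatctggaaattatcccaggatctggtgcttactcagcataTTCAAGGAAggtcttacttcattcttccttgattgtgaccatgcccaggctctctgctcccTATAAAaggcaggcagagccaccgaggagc
CXCR1: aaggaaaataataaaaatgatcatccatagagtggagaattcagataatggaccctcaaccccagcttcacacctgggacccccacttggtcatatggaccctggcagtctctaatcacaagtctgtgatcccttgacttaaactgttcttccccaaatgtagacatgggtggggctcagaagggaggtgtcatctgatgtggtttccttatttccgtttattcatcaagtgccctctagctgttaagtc
These windows are chr4:76023498-76023747 (minus strand) for CXCL10, chr10:44385098-44385347 (minus strand) for CXCL12, chr17:34319185-34319434 (plus strand) for CCL8 and chr2:218166963-218167212 (minus strand) for CXCR1.

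The motifs searched were the NF-kB consensus, the core of the interferon-stimulated response element (ISRE, GAAANNGAA), the gamma-activated site (GAS, TTCNNNGAA) and the TATA box (TATAAA). CXCL10 held 2 NF-kB matches, GGGAAATTCC from base -177 to base -168 and GGGACTTCCC from base -122 to base -113, counted back from the start site. It also held 1 ISRE core, GAAAGTGAA, from base -221 to base -213. CCL8 held a GAS, TTCAAGGAA, from base -91 to base -83, and a TATA box from base -30 to base -25. The windows of CXCL12 and CXCR1 held no match to these letters. The NF-kB consensus was in 7 of the 31 windows (22.6%), against 9.95% of 35095 RefSeq windows of the same length. For the ISRE core the shares were 16.1% and 6.88%, for GAS 12.9% and 6.57%, and for the TATA box 25.8% and 10.7%. An NF-kB match also stood in the windows of CXCL1, CXCL6, IL12A, IL2RA, IL6 and IL6ST, none of which was called. An ISRE core also stood in the windows of CCR2, CXCL9, IL24 and IL4, none of which was called. A match describes letters only and is not evidence of a bound site.

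CXCL10 had the lowest ratio of the 36 genes. Its mean spot foreground was 90.8 and 87.4 in the rhLRG1 samples 2 and 3, against 201 and 186 in the untreated samples 2 and 3. The rhLRG1 values were lower in both pairs. Without normalization, the mean log2 ratio of the background-corrected channels was below 0 for 91.6% of all probes. The ALEXA 647 channel was the dimmer one across the array, where the median foreground of all gene spots was 397 and 319 in the rhLRG1 channel and 508 and 425 in the untreated channel. After background correction and loess normalization, which removes that offset between the dyes, the log2 ratio of CXCL10 was -0.73 on array 2 and -0.14 on array 3. The RNA came from whole cultures, so fewer expressing cells and less RNA per cell cannot be told apart. The mean was -0.44 (SE 0.14, limma), with a Z ratio of -2.66 and an adjusted limma p of 0.168. The size depended on the background correction: CXCL10 had -1.34 and -1.04 with plain subtraction, a mean of -1.19, and -0.98 and -0.70 with the deposited net intensities, a mean of -0.84.

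The CXCL10 spots in the rhLRG1 channel were close to the bare slide. Their foreground was 1.25 and 1.23 times the local background on arrays 2 and 3, against 4.71 and 3.91 times in the untreated channel. The 54 control oligonucleotide spots, which carry no gene name, had medians of 1.39 and 1.30 times background in the rhLRG1 channel and 3.72 and 3.31 times in the untreated channel. By the mean of its 2 spots, CXCL10 lay at or below the control median in the rhLRG1 channel on both arrays. In the untreated channel that mean was above the control upper quartile, 4.40 and 3.73. Its second spot alone, at 3.86 and 3.63 times in the untreated channel, was below that quartile and above the control median on both arrays. The control spots themselves were shifted the same way: 74.1% of them on array 2 and 70.4% on array 3 had a log2 ratio below 0, with medians of -0.19 and -0.04. Their lowest ratios, -0.54 and -0.14, were near those of CXCL10 on array 3 and above them on array 2. The part of this dim-spot shift in the CXCL10 ratio was not tested.

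**Figure D1:**
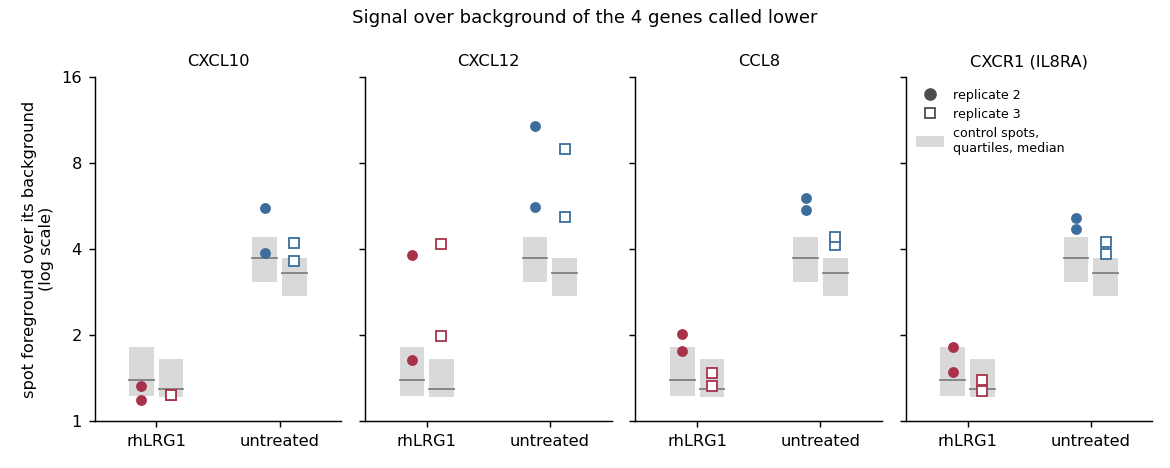
Spot foreground divided by local background, on a log axis, for the 4 genes called lower, with rhLRG1 spots on the left and untreated spots on the right of each panel. Filled circles are array 2, open squares array 3, and grey boxes give the quartiles and median of the 54 control spots. CXCL10 sits at 1.25 and 1.23 times background in rhLRG1 samples, inside the control range, and at 4.71 and 3.91 times in untreated samples.

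CXCL12, the ligand of CXCR4, had a foreground of 194 and 212 in the rhLRG1 samples, against 354 and 348 in the untreated samples. It was the brightest of the 4 called genes over its own background, at 2.73 and 3.08 times in the rhLRG1 channel and 8.18 and 7.08 times in the untreated channel. Both values in the rhLRG1 channel, means of 2 spots, were above the upper quartile of the control spots, 1.82 and 1.64. The second spot alone, at 1.64 times on array 2 and 1.98 times on array 3, was below that quartile on array 2. Its log2 ratio was -0.46 on array 2 and -0.13 on array 3, with a mean of -0.29 (SE 0.09), a Z ratio of -1.82 and an adjusted limma p of 0.162. Both of its spots were below 0 on both arrays. The call was lost with plain background subtraction (Z ratio -0.98), with the deposited net intensities (-1.45), with the first spots alone (-1.45) and without array 2 (-1.06).

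CCL8, a monocyte chemoattractant that acts through CCR2 among other receptors, had a foreground of 130 and 99.1 in the rhLRG1 samples, against 255 and 225 in the untreated samples. The log2 ratio was -0.41 on array 2 and -0.17 on array 3. The mean was -0.29 (SE 0.08), with a Z ratio of -2.09 and an adjusted limma p of 0.145. Over background, CCL8 stood at 1.88 times in the rhLRG1 channel on array 2, above the control upper quartile of 1.82. Its second spot alone, at 1.75 times, was below that quartile. On array 3 the rhLRG1 value of CCL8 was within the control quartiles, between the median of 1.30 and the upper quartile of 1.64. In the untreated channel CCL8 stood at 5.76 and 4.28 times, above the control upper quartiles of 4.40 and 3.73. CCL8 was the only one of the 36 genes called lower under each of the 8 alternative settings that changed the Z ratio, which include leaving out either array.

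CXCR1, the receptor printed as IL8RA, had a foreground of 118 and 95.1 in the rhLRG1 samples, against 211 and 191 in the untreated samples. Its log2 ratio was -0.32 on array 2 and -0.12 on array 3, with a mean of -0.22 (SE 0.07), a Z ratio of -1.65 and an adjusted limma p of 0.174. Over background it stood at 1.65 and 1.33 times in the rhLRG1 channel and at 4.92 and 4.03 times in the untreated channel. The rhLRG1 values lay within the control quartiles on both arrays, 1.22 to 1.82 on array 2 and 1.22 to 1.64 on array 3. The untreated values were above the control upper quartiles of 4.40 and 3.73. The Z ratio was -1.0 without array 2 and -1.35 on loess-normalized channels, both short of the threshold.

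For CXCL10 as well, the call rested on array 2, since its Z ratio was -1.08 without that array and -3.28 without array 3. Array 2 also had the wider spread, with a standard deviation of the log2 ratio over all probes of 0.207, against 0.125 on array 3. With the reported background correction, all 4 called genes were further from 0 on array 2 than on array 3. CCL8 was further from 0 on array 3 with plain subtraction (-0.56 on array 2, -0.87 on array 3). The same held with net intensities (-0.54, -0.71) and without background correction (-0.41, -0.50), whereas CXCL10 and CXCL12 kept their order. The reported correction gave CXCL10 rhLRG1 values of 66.8 on array 2 and 213 on array 3, from foregrounds of 90.8 and 87.4. Its part in the smaller array 3 ratios was not tested.

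**Figure D2:**
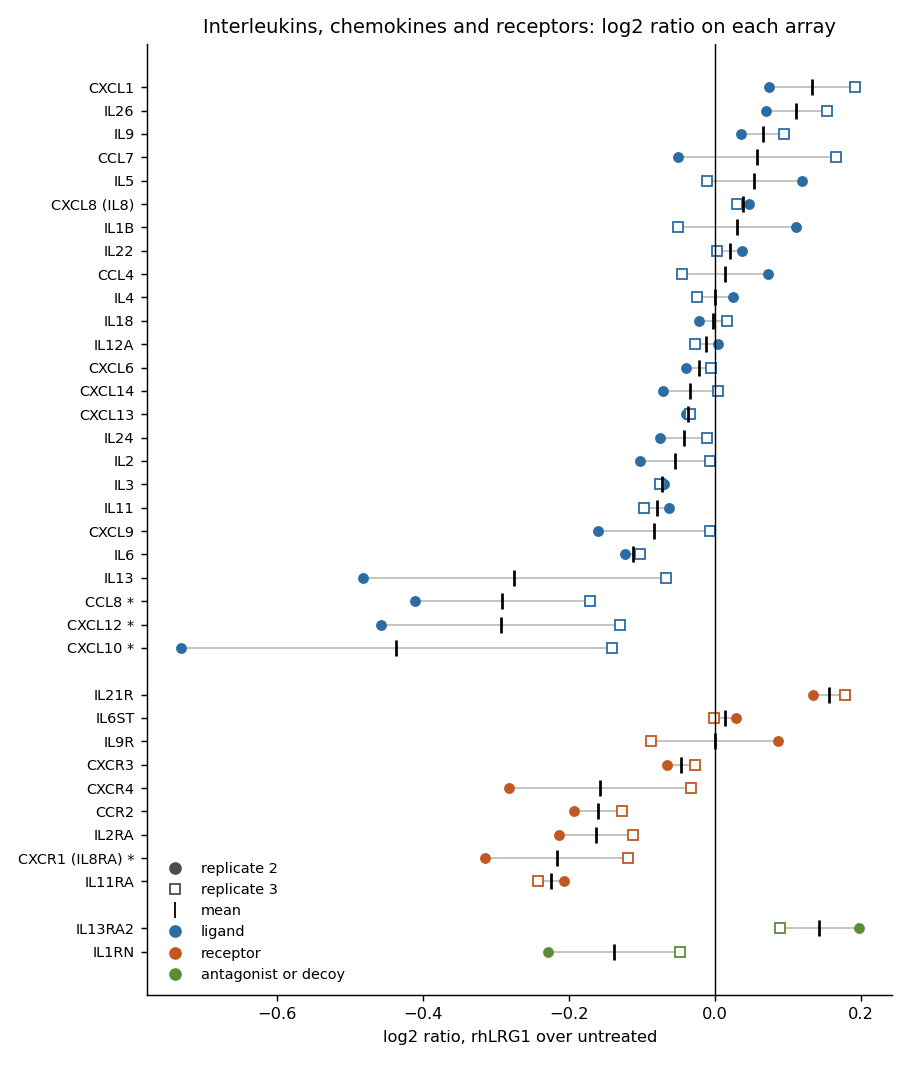
Log2 ratio of rhLRG1 over untreated for the 36 genes, with ligands, receptors and antagonists in blocks. Filled circles are array 2, open squares array 3, black ticks the mean of both, and asterisks the 4 genes called by the Z ratio. CXCL10 lies lowest, at -0.73 and -0.14, and the highest mean is that of IL21R at 0.16.

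Over all 25 ligands the median log2 ratio was -0.02, with 15 below 0 and 10 above, next to a median of -0.01 over all gene probes, of which 51.9% were below 0. Besides the 3 called ligands, the lowest was IL13, a type 2 cytokine. IL13 had a ratio of -0.48 on array 2 and -0.07 on array 3, a mean of -0.27 (SE 0.11), a Z ratio of -1.19 and an adjusted limma p of 0.208. Its rhLRG1 spots lay at 1.17 and 1.23 times background and its untreated spots at 3.26 and 3.12 times, below the control medians in both channels. It passed the Z ratio rule in 5 of the alternative settings, with values between -3.0 and -1.62.

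At the upper end of the ligands stood CXCL1, a neutrophil chemoattractant, with ratios of 0.07 and 0.19 and a mean of 0.13 (SE 0.06). IL26 followed with a mean of 0.11, IL9 with 0.07 and CCL7 with 0.06, and CCL7 changed sign between the arrays, -0.05 on array 2 and 0.17 on array 3. None of the ligands above 0 reached a Z ratio of 1.5 in any setting. CXCL8, the main ligand of CXCR1, had ratios of 0.05 and 0.03 under loess and a mean of 0.04, which turned to -0.24 under median centring, and its Z ratio was -0.24. IL6, a ligand that signals through IL6ST, had a mean of -0.11 that turned to 0.04 under median centring, and its 2 spots differed in brightness by 2.68 on the log2 scale, over 4-fold. IL1B, a product of activated NF-kB signaling and itself an inducer of it, was the brightest of the 36 probes, at 180 and 206 times background in rhLRG1 samples and 265 and 274 times in untreated samples. Its ratio was 0.11 on array 2 and -0.05 on array 3, and it was 0.60 and 0.32 under median centring and 0.02 and 0.01 with print-tip loess, so the sign on array 3 depended on the scaling.

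The 9 receptors had a median log2 ratio of -0.16, with 7 below 0 and 2 above. The receptor median was -0.087 without array 2, -0.084 on first spots and -0.10 on second spots. All 4 chemokine receptors that matched the naming rule were below 0 on both arrays, but CXCR3 turned to 0.10 under median centring. CXCR5, a chemokine receptor outside that rule, had a ratio above 0. ACKR1, a chemokine-scavenging receptor also outside it, had -0.20 and was called lower. CCR2, the receptor of CCL7 and CCL8, had ratios of -0.19 and -0.13 and a mean of -0.16, and its spots also differed over 4-fold in brightness. CXCR4, the receptor of CXCL12, had ratios of -0.28 and -0.03 and a mean of -0.16. The CXCR4 spots were at 1.19 and 1.20 times background in the rhLRG1 channel and at 2.67 and 2.65 times in the untreated channel, below the control medians in both. CXCR3, the receptor of CXCL9 and CXCL10, was among the brighter probes and had a mean of -0.05.

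Of the interleukin receptors, IL11RA, the specific chain of the IL-11 receptor, was the lowest, with ratios of -0.21 on array 2 and -0.24 on array 3. Its mean of -0.22 (SE 0.06) had an adjusted limma p of 0.145, and at 7.57 and 4.58 times background in rhLRG1 samples, and 17.0 and 10.3 times in untreated samples, it was far above the control medians. The Z ratio of IL11RA was -1.15, but -1.75 without array 2 and -1.54 on loess-normalized channels, and -0.57 without array 3, -0.79 on first spots and -0.19 with plain subtraction. IL2RA, the alpha chain of the IL-2 receptor, had a mean of -0.16 and a Z ratio of -1.30, beyond -1.5 in 3 alternative settings. IL21R was the highest of all 36 genes, with ratios of 0.13 and 0.18, a mean of 0.16 (SE 0.06) and an adjusted limma p of 0.191. IL6ST, the shared signal chain gp130, had a mean of 0.01 that turned to -0.16 under median centring, and IL9R a mean of 0.00, with IL9R at 0.09 on array 2 and -0.09 on array 3. The antagonist IL1RN, which blocks the IL-1 receptor, had a mean of -0.14, and the decoy receptor IL13RA2, which binds IL-13, a mean of 0.14 that turned to -0.03 under median centring.

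At an unadjusted limma p under 0.05, 8 of the 36 genes were lower, beside 11.7% of all probes, and 1 was higher, beside 11.6% of all probes. The 8 lower genes were CXCL10, CXCL12, CCL8, IL13, IL11RA, CXCR1, IL2RA and CCR2, and the higher one was IL21R. Without background correction the same 8 genes also passed the adjusted limma p, as did 12.1% of all probes in the lower and 11.2% in the higher direction, and 0 of the 36 genes were higher there. With plain subtraction 8 genes passed lower and IL13RA2 higher, beside 22.5% of all probes in either direction. With the deposited net intensities 10 passed lower and IL12A, IL21R, IL26 and CXCL8 higher, beside 32.5% of all probes.

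The signs on the 2 arrays matched for 26 of the 36 genes (72.2%), next to 75.3% of all probes. Of these genes 19 were below 0 on both arrays and 7 above on both. Their mean ratios were small beside the extremes of the array, between -0.44 and 0.16, against -0.66 to 0.98 over all probes.

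**Figure D3:**
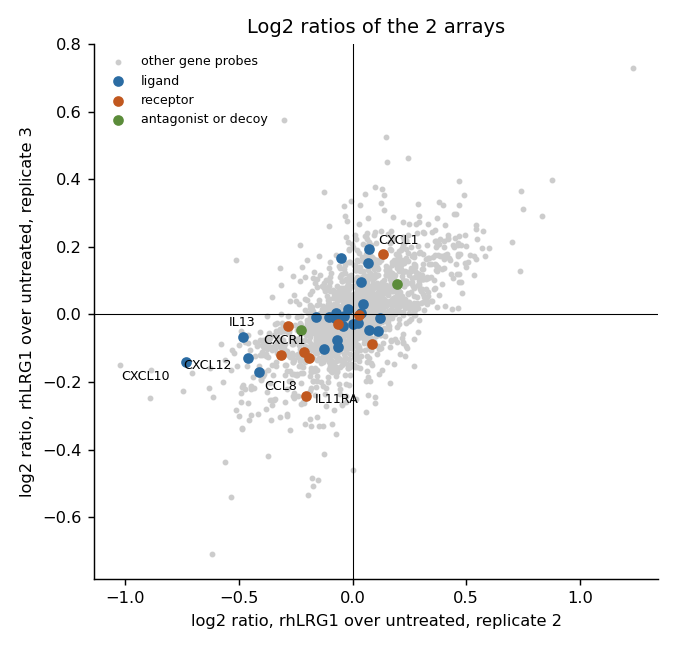
Log2 ratio of rhLRG1 over untreated on array 3 against array 2, for the 36 genes (colored by class) over all other gene probes (grey). CXCL10, CXCL12, CCL8 and CXCR1 stand on the lower left, with array 2 values from -0.73 to -0.32.

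The called genes had dim probes. All 4 were in the dimmest of 3 equal classes of the 1856 probes, which held 15 of the 36 genes. In that class 4 of 15 genes (26.7%) were called, next to 23.3% of all probes there, and 12 of the 15 were below 0. Of the 8 genes of the middle class and the 13 of the brightest, 0 were called, next to 9.22% and 7.59% of all probes. In the brightest class 8 of the 13 genes were above 0. The rhLRG1 channel was under 1.5 times background for 13 of the 72 spots on array 2 (18.1%) and 17 on array 3 (23.6%), against 10.1% and 14.8% of all gene spots. In the untreated channel this held for 0 of the 72 spots on either array. All 72 spots still exceeded background plus 2 SD in both channels. On both arrays, 4 of the 36 genes (CXCL9, CXCL10, CXCR4 and IL13) were at or below the control median in the rhLRG1 channel (11.1%, next to 4.96% of all probes), and 6 were so in the untreated channel (16.7%, next to 8.78%). CXCL10 was the only one of these 4 that was above the control median in the untreated channel on both arrays.

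**Figure D4:**
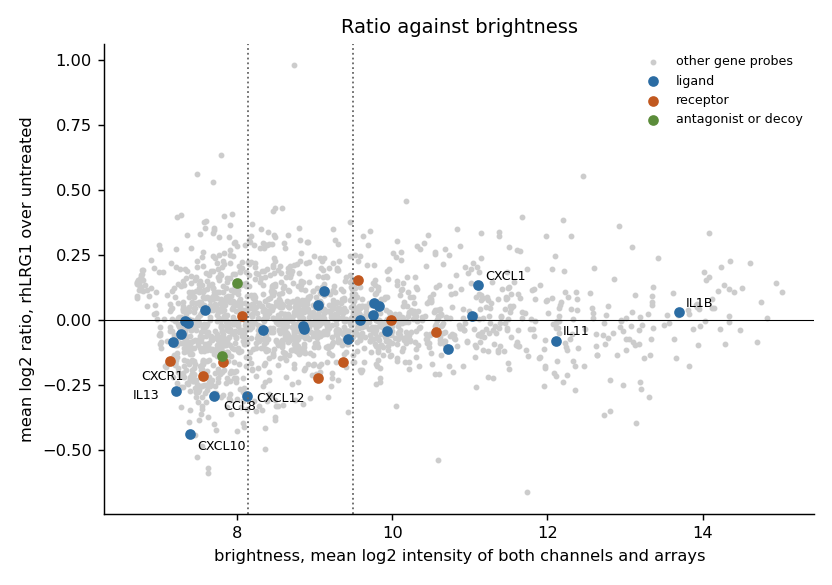
Mean log2 ratio of rhLRG1 over untreated against brightness, the mean log2 intensity of both channels and arrays. Dotted lines part the 3 brightness classes, and all 4 called genes (CXCL10, CXCL12, CCL8 and CXCR1) lie in the dimmest class, left of the first line.

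Ligands and receptors that bind each other were set side by side for the 12 known pairs on the array, which involve 11 ligands and 8 receptors. In 7 pairs both partners were below 0, but in 5 under median centring, where IL11 turned to 0.19 and CXCR3 to 0.10, and in 6 with plain subtraction. For CXCL12 and CXCR4 the means were -0.29 and -0.16, for CCL8 and CCR2 -0.29 and -0.16, and for CXCL10 and CXCR3 -0.44 and -0.05. For IL11 and IL11RA they were -0.08 and -0.22, and for IL2 and IL2RA -0.05 and -0.16. CXCR1 at -0.22 was paired with CXCL8 at 0.04 and with CXCL6 at -0.02. The pairs share receptors and ligands and are not independent of each other.

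By the gene order of RefSeq on GRCh38.p14, some of the lowest ligands have neighbors on the array. CXCL10 (-0.44) and CXCL9 (-0.08), both induced by interferon gamma, have 1 RefSeq protein-coding gene between them. CCL8 (-0.29) and CCL7 (0.06) also have 1 between them. IL13 (-0.27) and IL4 (0.00) have 0 between them. CXCL9 and IL13 were at or below the control medians in both channels, and the difference within each of these pairs was not tested.

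Among 36 signaling and cytokine genes on 4 lists set beside this family, 8 (22.2%) were called, next to 13.4% of all probes. Of 6 JAK and STAT transducers and inhibitors on the array, 0 were called higher and 0 lower, with ratios between -0.12 (STAT3) and 0.05 (PIAS1). Of 8 genes of the IL-1 receptor, Toll and NF-kB route, 2 were called higher and 2 lower, next to 6.73% and 6.63% of all probes. TNFAIP3, an inhibitor of NF-kB, had a ratio of 0.38 and MAP3K7, the kinase TAK1, one of 0.17, whereas NFKBIA, another NF-kB inhibitor, had -0.27 and RELA, an NF-kB subunit, -0.23. Of 15 other class I and II cytokine and receptor genes, LIFR (0.33), a partner of gp130, was called higher and CSF2RB (-0.50), the shared beta chain of the IL-3, IL-5 and GM-CSF receptors, lower. Of 7 other inflammatory cytokine genes, TNF (-0.26) and ACKR1 (-0.20), a chemokine-scavenging receptor printed as FY, were called lower and 0 higher. None of these genes passed an adjusted limma p of 0.05. Of the called ones, TNFAIP3, MAP3K7, RELA, LIFR, TNF and ACKR1 were in the dimmest class, where 23.3% of all probes were called. CSF2RB was in the middle class (9.22%) and NFKBIA in the brightest (7.59%). Of markers for this and other cell types, 1 of 4 leukocyte markers was called (CD3G, 0.13, higher), and 0 of 3 luminal, 0 of 4 fibroblast and mesenchymal and 0 of 2 endothelial markers.

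Processing and leaving out an array moved calls but not their direction. Over the 8 alternatives that changed the Z ratio, between 2 and 5 of the 36 genes were called, always lower. Of all probes, between 10.2% and 13.1% were called in these settings, in either direction. Without array 2, CCL8 kept its call, IL11RA gained one, and CXCL10, CXCL12 and CXCR1 lost theirs. Gained calls were IL13 in 5 settings, IL2RA in 3, IL11RA in 2 and CXCR4 in 1, plain subtraction (Z ratio -2.11).

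**Figure D5:**
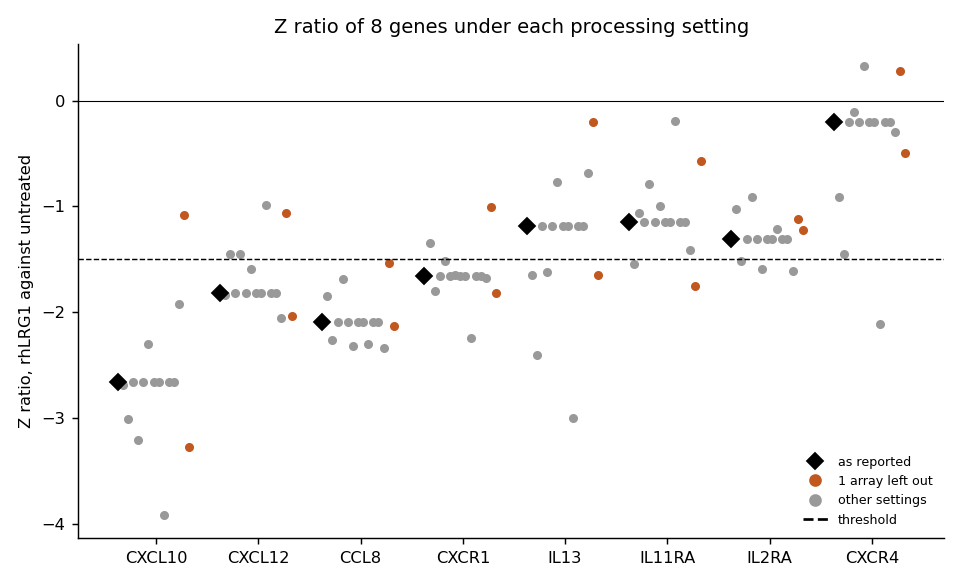
Z ratio of rhLRG1 against untreated for 8 genes as reported (black diamonds), with 1 array left out (orange) and under the other settings (grey), with the threshold of -1.5 dashed. CCL8 stays beyond -1.5 throughout, from -2.34 to -1.53, and CXCL10 does so except without array 2, at -1.08.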

How the data were processed

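Processed scanner tables of 2 two-color arrays of human cancer genes were used, 1 per pair of samples. The deposited intensities are per-spot foreground and local background of each channel, quantified by the authors. The study's methods name GenArise for the raw intensities, and the submitters' processing notes list R 4.2.2. Ratio columns made by the authors and summary lines were not used. In R 4.3.3 with limma 3.58.1, intensities were corrected by normexp (offset 50) and normalized by loess within arrays (span 0.3, 4 iterations, 54 control spots given no weight), and the 2 spots of a probe were averaged. Each array is the log2 ratio of rhLRG1 over untreated, tested with lmFit and eBayes and adjusted over 1856 gene probes. Samples of the same number share an array by the labels, which pairs them, and their deviations from the group means correlated at 0.945. The Z ratio, with its threshold of 1.5 after the study's methods, used log10 corrected intensities.

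Probe names were matched to RefSeq, 34 of 36 by accession and 2 by symbol. Genes named in the text were the called ones, CXCL10, the 4 highest and 4 lowest ligands and receptors, partners of called genes and called pathway genes; IL6, IL1B, IL1RN, IL13RA2 and the genes named beside counts were chosen after their values were seen. The 36 genes and all lists were chosen with earlier results of these data known. The study's methods speak of 3 biological replicates, of which 2 pairs were analysed here. The fits were run on simulated arrays with the same spread of noise at every brightness and no added shift of dim spots. That run says nothing of the shift near background.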

Additional observations from a re-analysis of the deposited data

How the results depend on the processing

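Among the 36 genes, the 4 calls by the Z ratio became 2 without array 2 and 5 without array 3, and the ligands called 1 and 4. Of all probes, 12.1% were called without array 2 and 12.6% without array 3. The receptors called became 2 without background correction, with plain subtraction, with the deposited net intensities and with the second spots. The shares of all probes called there were 10.2%, 10.2%, 11.9% and 13.1%. The count at an unadjusted limma p under 0.05, 9 as reported, was 5 under median centring, 17 without normalization and 15 with net intensities. Of all probes, 433 passed as reported, and 334, 752 and 745 in those settings. In the fit without the pairing by array (no replicate block) the count for the 36 genes was 0, when 17 of all probes passed. The count at an adjusted limma p under 0.05, 0 as reported, was 8 without background correction, 9 with plain subtraction, and 14 both without normalization and with net intensities (in this last setting 4 of the 14 were higher), beside 432, 417, 503 and 603 of all probes.

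Without normalization the median of all probes moved to -0.31, and the medians became -0.35 for the 36 genes, -0.33 for ligands and -0.47 for receptors. The median of the 36 genes was -0.057 without array 3, -0.027 without array 2, -0.0016 on first spots and -0.070 on second spots, and that of the ligands 0.019 on first spots and -0.065 on second spots. The causes were not tested beyond what these settings change. Of 14 alternatives, 6 leave every Z ratio as it is, since they act after it or removed no probe, and say nothing of its stability. Over the other 8, the Z ratios of the 19 named genes lost a call 7 times, gained one 11 times, and moved to the other side of 0 in an uncalled gene 15 times. A limma test on 1 array was not run, since it leaves no residual degrees of freedom. Signal near background limits all 4 called genes in the rhLRG1 channel.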
